A study of Mus musculus with 6 samples.

Results

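Guanylate-binding proteins (GBP) and immunity-related GTPases (IRG) were followed in mouse T cells induced to a regulatory fate (iTreg), with and without prostaglandin E2 (PGE2). The members were the annotated entries named Gbp2, Gbp3, Gbp4, Gbp5, Gbp6, Gbp7, Gbp8, Gbp9, Igtp or Irgm1 in the gene tables. These 10 names held 11 of 47643 gene IDs, since 2 IDs carry the name Gbp6. All 11 passed the filter on low values, a mean of at least 1 FPKM (fragments counted per kilobase of transcript and relative to library size) over the 6 libraries.

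Both groups consisted of Foxp3+ iTreg from C57BL/6 mice with the Foxp3-DTR/EGFP allele, which ties a green fluorescent reporter and a diphtheria toxin receptor to Foxp3, the transcription factor of regulatory T cells. CD4+ T cells of the spleen were kept for 2 days on plate-bound antibody to CD3 with soluble antibody to CD28 and TGF-β, then received vehicle (DMSO) or 100 nM PGE2 for 6 h, and the GFP-positive cells were sorted. There were 3 libraries of each, numbered 1 to 3. Nothing in the labels says that replicates are separate animals or cultures, and the p-values therefore cover the spread among these samples, which may be technical. The cells were made in culture and sorted on the reporter, and tumour-infiltrating cells were not analysed here.

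GBP and IRG proteins are GTPases that vertebrate cells make in response to interferons, above all interferon-γ. GBPs gather on vacuoles and membranes of intracellular bacteria and parasites, open them and feed inflammasomes, while IRGs act on the same vacuoles, with a regulatory class (to which Igtp and Irgm1 belong) that keeps the effector class off the cell's own membranes. Their promoters are known for the interferon-stimulated response element (ISRE), which interferon regulatory factors bind, and the interferon-gamma-activated site (GAS). PGE2 is a lipid mediator whose receptors EP2 and EP4 raise cyclic AMP.

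Of the members, Gbp2 rose with PGE2, from 97.1 ± 0.518 FPKM with vehicle to 160 ± 8.9 FPKM (SD, n = 3 each), and no other member passed the test in either direction. Gbp3 and Gbp5, which also lie on chromosome 3, and the Gbp6 entries had higher means with smaller differences that did not pass the test. Gbp7 and Gbp9 had nearly equal means, and Gbp4 had a lower mean with PGE2. Igtp, the most abundant member, averaged 251 ± 18.7 FPKM with vehicle and 292 ± 27.5 FPKM with PGE2, with overlapping libraries. Whether more cells carried a transcript or each cell carried more of it cannot be told apart in bulk libraries.

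Promoter windows are shown for the member that rose (Gbp2), another chromosome 3 member with nearly equal means (Gbp7), the most abundant member (Igtp) and the other IRG (Irgm1). RefSeq's promoter table (GRCm38.p6) matched 6 of the 10 names: Gbp2, Gbp3, Gbp5, Gbp7, Igtp and Irgm1. Each window starts 250 bases before the RefSeq start and reads 5′ to 3′ on the gene's strand. Capitals mark matches to the ISRE, searched as GAAANNGAAA, and to the GAS, searched as TTCNNNGAA, on both strands, where N is any base. The Gbp2 window ends with its ISRE match, and its last 12 bases, which hold that match, already lie in an untranslated region that GENCODE release M21 gives the gene. The Irgm1 window lies wholly inside the Irgm1 entry of the gene tables, which begins farther upstream than the RefSeq start, as do the Gbp5 window and the second of Gbp3. The Gbp2 window covers chr3:142620413-142620613 on the plus strand, that of Gbp7 chr3:142530086-142530335 on the plus strand, that of Igtp chr11:58199306-58199555 on the plus strand and that of Irgm1 chr11:48871421-48871670 on the minus strand.
Gbp2: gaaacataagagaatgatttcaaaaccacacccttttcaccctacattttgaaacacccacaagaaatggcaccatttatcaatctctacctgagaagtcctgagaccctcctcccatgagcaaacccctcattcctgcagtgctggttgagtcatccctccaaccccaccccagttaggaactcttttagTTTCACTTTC
Gbp7: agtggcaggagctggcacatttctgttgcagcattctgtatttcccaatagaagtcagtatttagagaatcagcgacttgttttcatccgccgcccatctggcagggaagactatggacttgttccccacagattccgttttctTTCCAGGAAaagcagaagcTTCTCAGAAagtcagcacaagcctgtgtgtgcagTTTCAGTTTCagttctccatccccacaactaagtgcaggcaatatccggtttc
Igtp: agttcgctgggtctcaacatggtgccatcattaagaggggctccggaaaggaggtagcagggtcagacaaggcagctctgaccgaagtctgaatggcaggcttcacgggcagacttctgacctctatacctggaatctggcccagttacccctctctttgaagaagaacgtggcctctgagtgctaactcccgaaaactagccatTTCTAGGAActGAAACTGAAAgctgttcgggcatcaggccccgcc
Irgm1: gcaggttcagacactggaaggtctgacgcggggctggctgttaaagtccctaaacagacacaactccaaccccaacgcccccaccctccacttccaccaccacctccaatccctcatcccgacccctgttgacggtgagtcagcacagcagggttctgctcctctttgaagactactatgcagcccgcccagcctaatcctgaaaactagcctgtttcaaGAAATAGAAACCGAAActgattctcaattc

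Each of the 6 names had an ISRE match in the 250 bases before a RefSeq start, in Gbp3 at 1 of its 2 starts, whereas 2.98% of 32851 promoters of that length held one. In Gbp2 the match TTTCACTTTC lay 59 to 50 bases before the start, and in Gbp7 TTTCAGTTTC lay 53 to 44 bases before it. Igtp carried GAAACTGAAA at 34 to 25 bases, on the other strand from the matches in the GBP genes. Irgm1 carried a pair, GAAATAGAAA at 30 to 21 and GAAACCGAAA at 24 to 15 bases, which share 4 bases. A GAS match was found in Gbp7 (2), Gbp5 (2) and Igtp (1), against 7.02% of all promoters, and none in Gbp2, Gbp3 or Irgm1. The cyclic AMP response element, searched as TGACGTCA, was in no member window, against 1.55% of all promoters. Its shorter core TGACG was in Irgm1 only, at 2 places, against 17.8%. These matches describe the letters of a window only, and the distances count from the RefSeq start. The Gbp2 match lies inside an untranslated region that GENCODE release M21 gives the gene. Whether any match bears on a change with PGE2 was not tested.

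The depth, given by coverage divided by FPKM, was 3.996 to 5.446 gigabases of fragments per library and lowest in replicate 3 of each group. The regulatory T cell markers (6 of 6 above 1 FPKM) summed to 1270 to 1340 FPKM with vehicle and 1380 to 1490 FPKM with PGE2, without overlap. Of these Ctla4 was called higher (199 ± 7.14 to 345 ± 5.93 FPKM, limma adjusted p = 0.0076, up to 0.074 under the alternatives), and Il2ra had a lower mean (691 ± 59.6 and 640 ± 27.6 FPKM, 0.75). Foxp3 itself had a higher mean with PGE2 (92.1 ± 14.4 and 115 ± 22.5 FPKM, limma adjusted p = 0.51), with overlapping libraries. It was lowest in replicate 3 of each group (75.4 FPKM with vehicle, 91.1 FPKM with PGE2). Markers of other cell types were low. Of 8 myeloid IDs 7 stayed under 1 FPKM (Clec4a2 at 0; sums 1.98 to 5.56 with vehicle, 2.78 to 4.58 with PGE2). All 4 dendritic markers did (Siglech at 0; sums 0.118 to 0.387 and 0.151 to 0.263), as did 4 of 5 B cell markers (sums 3.84 to 5.7 and 3.55 to 4.33) and all 5 erythroid and platelet markers (Pf4 and Ppbp at 0; sums 0.702 to 0.921 and 0.603 to 1.16). NK and CD8 markers (3 of 5 under 1 FPKM, Ncr1 and Klrb1c at 0) summed to 6.19 to 8.06 FPKM with vehicle and 8.46 to 11.1 FPKM with PGE2, so that these sums do not overlap either. The part of these differences in the results was not tested.

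Of the 11 member IDs tested, 1 was called higher with PGE2 and 0 lower by limma at an adjusted p under 0.05, against 0.57% (higher) and 0.239% (lower) of 12113 tested genes. With the replicate number as a block the member counts were also 1 and 0, against 1.77% and 1.49% of all tested genes. An unadjusted p under 0.05 was reached by 4 members with higher values (Gbp2, Gbp5 and the 2 Gbp6 entries) and by 0 with lower values, against 5.46% and 7.59%. In 5 members all PGE2 libraries lay above all vehicle libraries and in 0 all lay below, against 7.81% and 11.9%. The log2 change (PGE2 minus vehicle, on log2(FPKM + 1)) was above 0 for 9 of 11 IDs, whereas 43.3% of all tested genes had a higher mean. Its median was 0.22 over the members and -0.03 over all tested genes. Several members overlap on the genome or share sequence, as given further on, and do not count as independent genes.

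**Figure D1:**
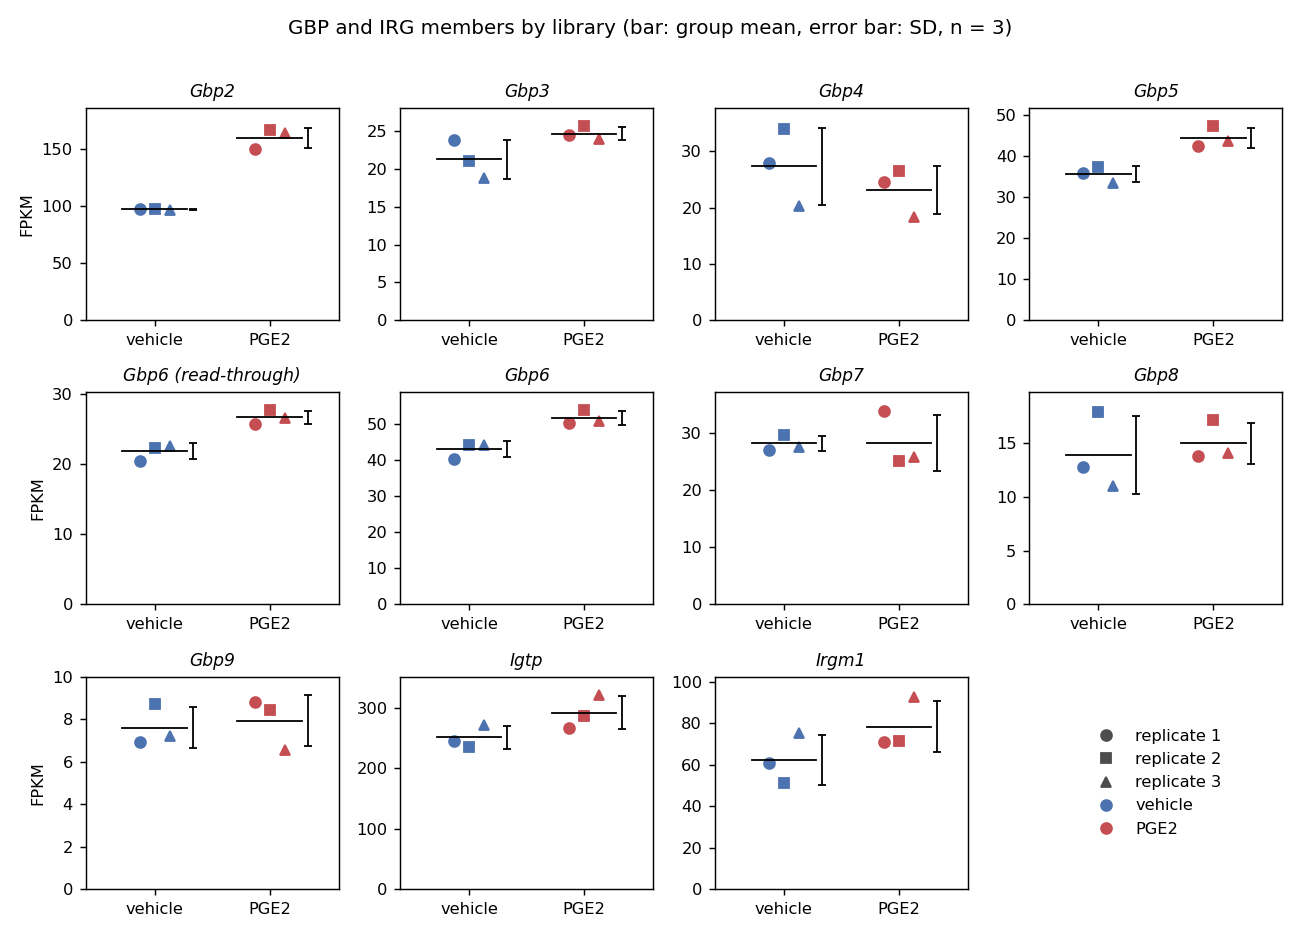
FPKM of the 11 member IDs in each library (vertical axes in FPKM, starting at 0; circles, squares and triangles are replicates 1, 2 and 3; bars are group means with SD, n = 3). The 3 PGE2 libraries of Gbp2 sit between 150 and 167 FPKM, above vehicle libraries between 96.6 and 97.6 FPKM, while those of Gbp7 and Igtp overlap.

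Gbp2, a GBP that carries a lipid anchor at its end and is needed for the attack on parasite vacuoles and for inflammasome activation by bacteria, lies on mm10 chromosome 3 from 142620602 to 142638008 on the plus strand (ENSMUSG00000028270.12). In the order of replicates 1 to 3, used for all values that follow, it stood at 97.1, 97.6 and 96.6 FPKM with vehicle and at 150, 167 and 164 FPKM with PGE2. The vehicle libraries were nearly equal (coefficient of variation 0.534%), the PGE2 libraries spread somewhat more (5.55%), and the groups were far apart. The log2 change was 0.72 (SE 0.08, 95% interval 0.53 to 0.9), a fold of 1.64, with an adjusted p of 0.012 by limma. By replicate number the log2 differences were 0.62, 0.77 and 0.76, and read coverage in place of FPKM gave 0.71. The size of the change did not hang on any library (0.69 to 0.76 with each left out in turn), but the adjusted p exceeded the threshold when vehicle replicate 1 (0.06), vehicle replicate 2 (0.078) or PGE2 replicate 2 (0.086) was left out.

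The other 3 GBP members of the chromosome 3 cluster lie upstream of Gbp2 on the same strand. Gbp5, a lipid-anchored GBP that promotes NLRP3 inflammasome assembly (ENSMUSG00000105504.4, chromosome 3, 142493978 to 142522344), was at 35.8, 37.4 and 33.5 FPKM with vehicle and at 42.4, 47.2 and 43.7 FPKM with PGE2. Its groups did not overlap, with a log2 change of 0.31 (SE 0.08, 95% interval 0.12 to 0.51) and a limma adjusted p of 0.16. Gbp3 (ENSMUSG00000028268.14, 142560026 to 142573209) was at 23.9, 21.1 and 18.8 FPKM with vehicle and at 24.5, 25.7 and 24 FPKM with PGE2. All its PGE2 libraries were above the vehicle libraries, although the first pair differed by only 0.04 on the log2 scale against 0.27 and 0.33 in the others. Its log2 change of 0.21 (SE 0.1, 95% interval -0.03 to 0.45) did not pass the test (limma adjusted p = 0.45).

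Gbp7, a GBP with a role in host defence against bacteria and parasites, lies between Gbp5 and Gbp3 (ENSMUSG00000040253.15, 142530342 to 142550149). It read 27.1, 29.7 and 27.6 FPKM with vehicle and 33.9, 25.2 and 25.8 FPKM with PGE2. PGE2 replicate 1 was the highest library and the other 2 PGE2 libraries were the lowest, so the groups overlapped fully. The log2 change was 0.00 (SE 0.12, 95% interval -0.29 to 0.29), and its sign turned with the scaling (0.03 with median-of-ratios scaling, 0.01 with quantile normalization, 0.08 with read coverage). Inside Gbp7 lies the pseudogene Gm43802 (142547882 to 142548518, same strand), looked at after the values were seen. Gm43802 read 24.8, 25.2 and 28.5 FPKM with vehicle and 27.2, 25.9 and 33.5 FPKM with PGE2. Of the transcript windows of Gbp7, defined further on, 563 (10%) also occur in Gm43802. Reads within that shared sequence cannot be told apart, so the Gm43802 values do not show separate expression. The 2 entries added up to 52, 54.9 and 56.1 FPKM with vehicle and 61.1, 51.1 and 59.4 FPKM with PGE2, still overlapping. Each FPKM is scaled to the length of its own entry, so these sums are not a level of Gbp7.

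The tables also list loci assembled from the reads, which give a second reading of each member. These readings differed for several members. For Gbp7 the locus with the longest overlap was 17.4, 19.3 and 16.6 FPKM with vehicle and 47.6, 28.1 and 47.3 FPKM with PGE2. In each vehicle library 2 loci covered the gene and in each PGE2 library a merged one did, so these levels stand for different stretches of the gene. The locus of the longer Gbp6 entry read 11, 13.6 and 13.3 FPKM with vehicle and 16.4, 67.2 and 63.9 FPKM with PGE2, and that of the shorter read 37.6, 41.4 and 40.6 FPKM against 46.6, 67.2 and 63.9 FPKM. In PGE2 replicates 2 and 3 the same locus gave the reading of both. Igtp, which overlapped between groups as an annotated entry, did not as a locus (246, 235 and 272 FPKM against 285, 287 and 321 FPKM). Gbp3, by contrast, overlapped as a locus (24.3, 21 and 18.8 FPKM against 24.5, 25.7 and 23.9 FPKM). For Gbp2 the assembled locus read 97.2, 97.7 and 96.7 FPKM with vehicle and 150, 172 and 164 FPKM with PGE2, close to the annotated entry. Summed over the chromosome 3 cluster, the assembled loci gave 201, 202 and 195 FPKM with vehicle and 269, 273 and 282 FPKM with PGE2.

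Gbp4, Gbp8, Gbp9 and Gbp6 lie in the second GBP cluster, on the minus strand of mm10 chromosome 5. Gbp6 has a shorter entry (ENSMUSG00000104713.4, 105270702 to 105293698) and a longer one (ENSMUSG00000079362.5, 105214907 to 105293695), which GENCODE release M21 names Gm43302 and whose transcript runs from Gbp10 into Gbp6. The shorter entry read 40.3, 44.2 and 44.1 FPKM with vehicle and 50.3, 53.7 and 50.7 FPKM with PGE2. The longer entry read 20.5, 22.4 and 22.6 FPKM with vehicle and 25.8, 27.7 and 26.6 FPKM with PGE2. In both, every PGE2 library was above every vehicle library. Their log2 changes were 0.26 (SE 0.08, limma adjusted p = 0.22) and 0.28 (SE 0.08, limma adjusted p = 0.2), and reads of one cannot be told from those of the other over most of their length.

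Gbp4, a GBP of the interferon-γ response (ENSMUSG00000079363.7, chromosome 5, 105115767 to 105139586), was the only member whose log2 change was below 0 with both FPKM and read coverage. It stood at 27.9, 33.9 and 20.2 FPKM with vehicle and at 24.5, 26.5 and 18.4 FPKM with PGE2. PGE2 was lower in each numbered pair, by -0.18, -0.34 and -0.13 on the log2 scale, while the groups overlapped because replicate 3 was low in both. The log2 change was -0.22 (SE 0.2, 95% interval -0.7 to 0.26), -0.09 with read coverage, with a limma adjusted p of 0.74.

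Gbp8 (ENSMUSG00000034438.16, 105014150 to 105139540) read 12.8, 17.9 and 11 FPKM with vehicle and 13.8, 17.2 and 14.1 FPKM with PGE2. Gbp9 (ENSMUSG00000029298.15, 105077630 to 105139539), the member with the lowest level, read 6.91, 8.7 and 7.23 FPKM with vehicle and 8.8, 8.46 and 6.56 FPKM with PGE2. The groups overlapped for both genes, and the direction differed between the numbered pairs. Their log2 changes were 0.12 (SE 0.18, 95% interval -0.29 to 0.54) and 0.05 (SE 0.13, 95% interval -0.27 to 0.37), with limma adjusted p of 0.86 and 0.92. For Gbp9 the sign turned with read coverage (-0.01). Gbp4, Gbp8 and Gbp9 also overlap on the genome, by 23774 bases for Gbp4 and Gbp8 and 61910 bases for Gbp8 and Gbp9, and in 5 of 6 libraries the same assembled locus gave the reading of all 3.

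The IRG members lie on mm10 chromosome 11. Igtp, also known as Irgm3, is a regulatory IRG of the endoplasmic reticulum and lipid droplets (ENSMUSG00000078853.8, 58199556 to 58207591, plus strand). It read 245, 235 and 272 FPKM with vehicle and 267, 287 and 321 FPKM with PGE2. PGE2 was higher in each numbered pair, while PGE2 replicate 1 lay below vehicle replicate 3. The log2 change was 0.22 (SE 0.11, 95% interval -0.03 to 0.46), with a limma adjusted p of 0.46. Nearly the whole gene (7974 bases) lies within the span of the Irgm2 entry on the same strand.

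Irgm1, a regulatory IRG of the Golgi and lysosomes known to keep CD4+ T cells alive under interferon-γ (ENSMUSG00000046879.6, 48861968 to 48871683, minus strand), read 60.9, 51.2 and 75.2 FPKM with vehicle and 71, 71.3 and 92.8 FPKM with PGE2. Replicate 3 was the highest of its group on both sides, and vehicle replicate 3 stood above 2 of the PGE2 libraries. Its log2 change of 0.33 (SE 0.16, 95% interval -0.06 to 0.72) was the largest among the members after Gbp2 and did not pass the test (limma adjusted p = 0.46, or 0.087 with the replicate block). Gbp5, with a smaller change, had a lower limma adjusted p in both fits (0.16, or 0.076 with the block). By number the log2 differences were 0.22, 0.47 and 0.3.

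FPKM is scaled to length, so the members' levels can be set beside each other. With vehicle the order of the means was Igtp (251 FPKM), Gbp2 (97.1), Irgm1 (62.4), the shorter Gbp6 entry (42.9), Gbp5 (35.6), Gbp7 (28.2), Gbp4 (27.3), the longer Gbp6 entry (21.9), Gbp3 (21.3), Gbp8 (13.9) and Gbp9 (7.61). Neighbours from Igtp to Gbp7 did not overlap in their libraries, Gbp7, Gbp4, the longer Gbp6 entry and Gbp3 overlapped each with the next, and Gbp8 and Gbp9 stood apart from their neighbours. With PGE2 the first 6 kept this order (292, 160, 78.4, 51.6, 44.4 and 28.3 FPKM), and Gbp4 (23.1 FPKM) stood after the longer Gbp6 entry (26.7) and Gbp3 (24.7). Igtp made up 41% (replicate 1), 39.3% (replicate 2) and 43.2% (replicate 3) of the summed member FPKM with vehicle and 37.5%, 37.9% and 40.8% with PGE2.

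Summed over all 11 IDs, with the overlapping Gbp6 entries both counted, the level was 598, 600 and 628 FPKM with vehicle and 712, 757 and 788 FPKM with PGE2. The 4 GBP members on chromosome 3 summed to 184, 186 and 176 FPKM with vehicle and 251, 265 and 257 FPKM with PGE2. The 5 IDs on chromosome 5 summed to 108, 127 and 105 FPKM against 123, 134 and 116 FPKM. The 2 IRG members gave 306, 287 and 347 FPKM against 338, 358 and 414 FPKM. The sum over all IDs and that over chromosome 3 did not overlap between the groups, whereas the chromosome 5 and IRG sums did. Most of the difference on chromosome 3 was Gbp2, which is the member that the test called.

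Because Gbp2 stood out, its ratio to each other member within a library was compared between the groups, a comparison chosen after the values were seen. The log2 ratio of Gbp2 to Gbp5, the other lipid-anchored member, was 1.42, 1.36 and 1.5 with vehicle and 1.8, 1.8 and 1.88 with PGE2. Against Igtp it was -1.33, -1.26 and -1.48 with vehicle and -0.83, -0.78 and -0.97 with PGE2. In 9 of 10 ratios all PGE2 libraries were above all vehicle libraries, with mean differences between 0.4 (Gbp5) and 0.93 (Gbp4). All 10 share Gbp2, which was picked for its large change and small spread, and the Gbp6 entries overlap. The ratios are therefore not independent, and their count is no support for a difference of Gbp2 from the family. The exact two-sided permutation p of each of these 9 was 0.1, the smallest that 3 against 3 libraries allow, and 0.111 after Benjamini-Hochberg adjustment over the 10 ratios, so this permutation test cannot bring them under 0.05. The ratio to Irgm1 overlapped (0.66, 0.92 and 0.36 against 1.07, 1.22 and 0.81, mean difference 0.39, exact permutation p = 0.2). The difference between Gbp2 and the others is given here by its size and direction only.

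**Figure D2:**
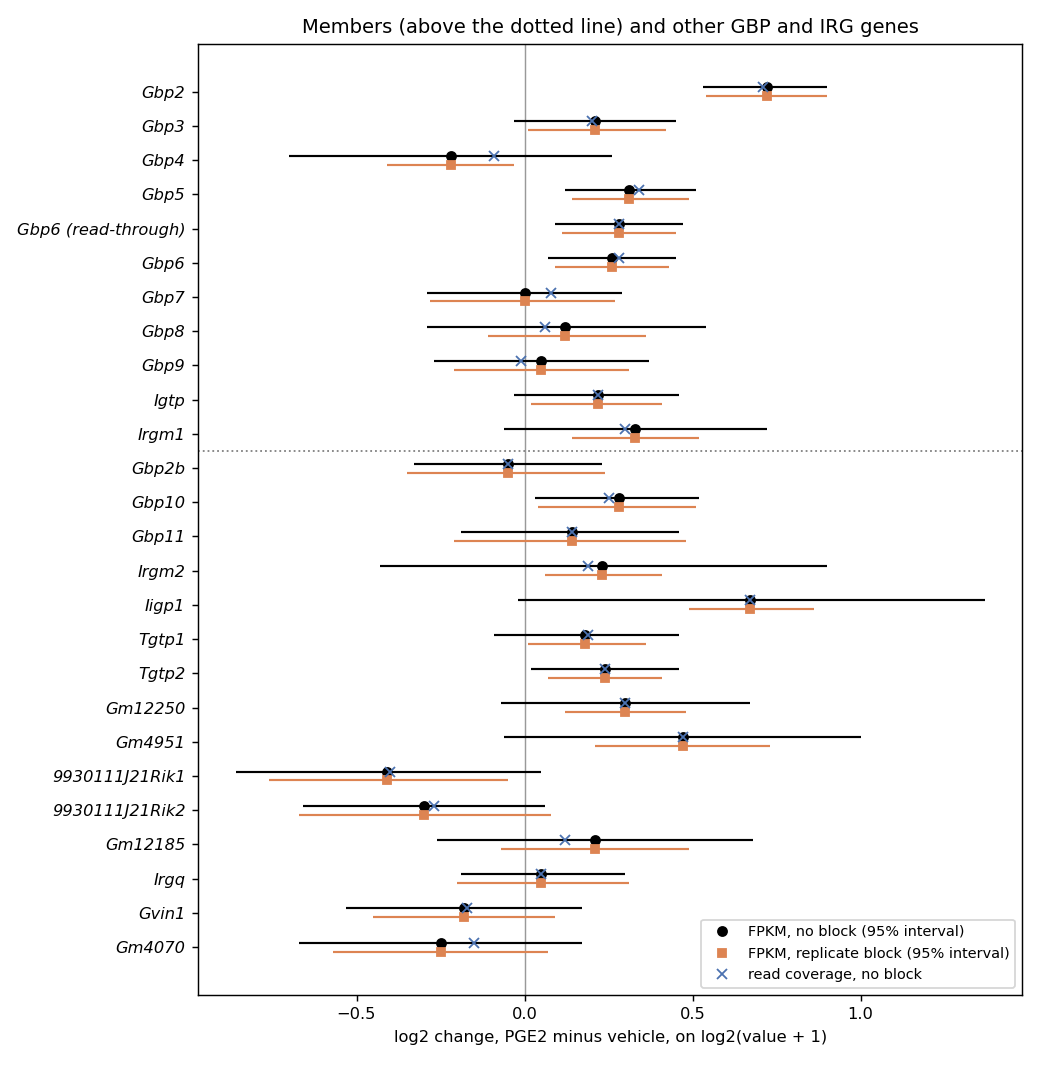
Log2 change with PGE2 (horizontal axis, PGE2 minus vehicle on log2(value + 1)) of the members and of other GBP and IRG genes, without and with the replicate block (bars are 95% intervals) and with read coverage (crosses). Gbp2 at 0.72 is the only gene above the dotted line whose adjusted p passed, and Gbp4 is the only one there whose estimates all lie below 0.

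The members varied within a group in different ways, a pattern looked at after the values were seen. Igtp and Irgm1 were highest in replicate 3 of both groups (2 of 11 members, 18.2%), as were 22.3% of all tested genes. Gbp3 and Gbp4 were lowest in replicate 3 of both groups, and Gbp4 spread most with PGE2 among the members, with the highest library at 1.44 times the lowest (1.68 with vehicle). The highest and lowest Gbp2 libraries, by contrast, were 1.01 times (vehicle) and 1.11 times (PGE2) apart. Replicate 3 also had the lowest depth in each group and the highest Klrd1, an NK and CD8 marker (0.961, 0.627 and 2.78 FPKM with vehicle, 2.54, 2.26 and 4.5 FPKM with PGE2). Cd8a and Cd8b1 of the same marker list were highest in replicate 3 with PGE2 but lowest in it with vehicle. Cd8a read 0.868, 0.601 and 0.598 FPKM with vehicle and 0.61, 0.733 and 0.762 FPKM with PGE2. Cd8b1 read 4.73, 4.96 and 4.68 FPKM with vehicle and 5.31, 5.6 and 5.88 FPKM with PGE2. Ncr1 and Klrb1c stood at 0 in all libraries. Klrd1 was itself called with the replicate block (log2 change 0.8, limma adjusted p = 0.38 without the block and 0.033 with it). The part of depth or of Klrd1 in the pattern was not tested.

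**Figure D3:**
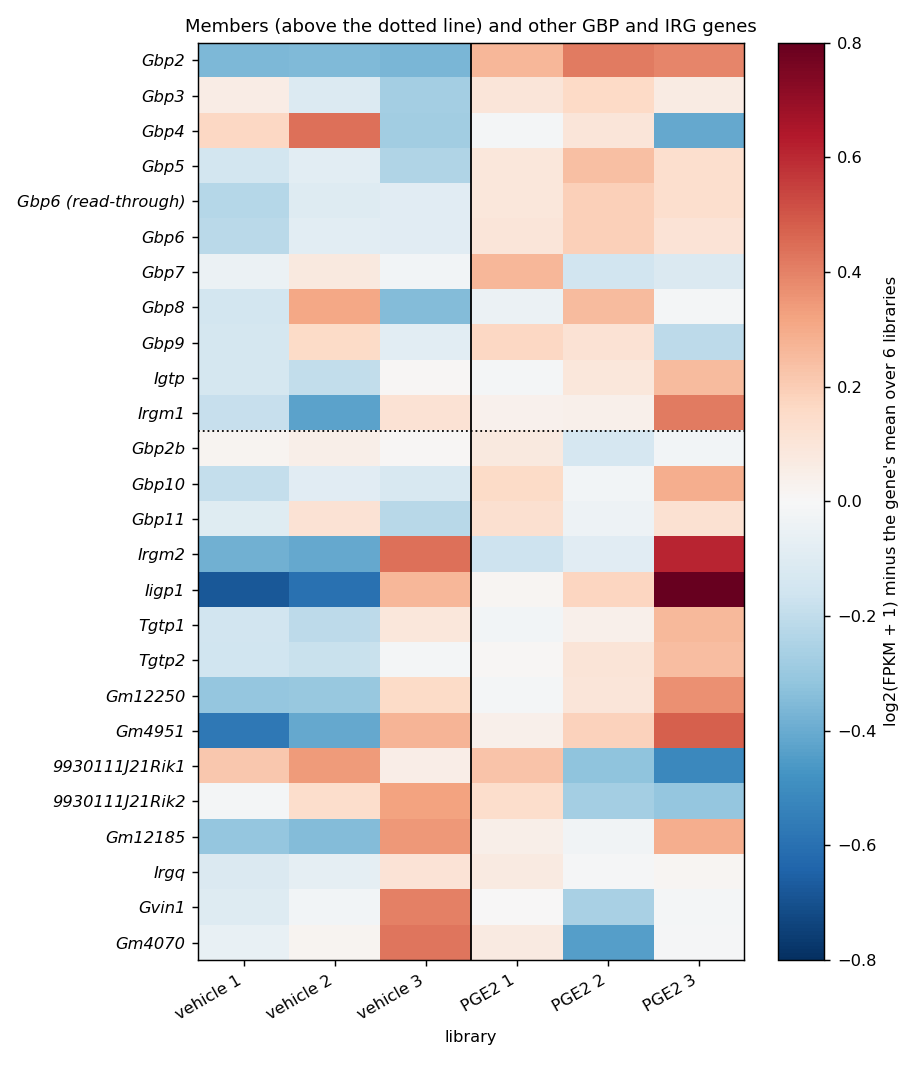
Centred level of each gene in each library (colour: log2(FPKM + 1) minus the gene's mean over 6 libraries; columns: 3 vehicle and 3 PGE2 libraries; rows above the dotted line: members). Gbp2 is below its mean in all vehicle libraries and above it in all PGE2 libraries, while Irgm1 and several other IRG genes are highest in PGE2 replicate 3.

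Of 18 other GBP and IRG genes, 15 were tested, and 0 were called higher or lower by limma. Gbp10 and Tgtp2 were higher at an unadjusted p under 0.05 and 0 genes were lower, and the median log2 change was 0.18. Over all tested genes 5.46% were higher and 7.59% lower at that p, and the median was -0.03. With the replicate block 1 of the 15 was called, against 1.77% of all tested genes called higher. It was Iigp1, the effector IRG that coats parasite vacuoles. It stood at 36.7, 38.8 and 71.5 FPKM with vehicle and at 59.9, 66.9 and 106 FPKM with PGE2. Replicate 3 was far above the others in both groups, so that the groups overlapped although PGE2 was higher in each pair. The log2 change was 0.67 (SE 0.3), with a limma adjusted p of 0.4 without the block and 0.012 with it.

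Neither of the Tgtp genes, which encode effector IRGs, passed the test. Tgtp2 read 59.1, 58.3 and 65.2 FPKM with vehicle and 66.4, 71 and 78.4 FPKM with PGE2 (log2 change 0.24, limma adjusted p = 0.35), and its near-identical copy Tgtp1 read 78.6, 75.5 and 93.1 FPKM and 86.3, 89.9 and 105 FPKM (0.18, 0.58). Irgm2, the remaining regulatory IRG, read 18.6, 18.2 and 33.7 FPKM and 21.8, 23 and 37.9 FPKM (0.23, 0.82). Gbp10 of the chromosome 5 cluster read 10.1, 10.9 and 10.6 FPKM and 13.1, 11.5 and 14.5 FPKM (0.28, 0.32). Gbp2b, a close relative of Gbp2, and Gbp11 were close to the filter, at 1.24 and 1.02 FPKM with vehicle and 1.16 and 1.22 FPKM with PGE2. The IRG genes Gm12250 and Gm4951 had log2 changes of 0.3 and 0.47 (limma adjusted p = 0.49 and 0.45), Gm12185 had 0.21 and Irgq 0.05. Log2 changes below 0 were found for 5 of the 15: 9930111J21Rik1 (-0.41), 9930111J21Rik2 (-0.3), Gm4070 (-0.25), Gvin1 (-0.18) and Gbp2b (-0.05), with limma adjusted p of 0.45, 0.48, 0.63, 0.7 and 0.91. F830016B08Rik, Gm5431 and Irgc1 were under the filter. Of the 15 tested genes, 7 (46.7%) were highest in replicate 3 of both groups, among them Irgm2, Iigp1, Tgtp1 and Tgtp2.

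Among receptors and signalling genes upstream of the family, 20 of 22 listed were tested, 1 was called higher and 0 lower by limma, and the median log2 change was 0.12. Over all tested genes 0.57% were called higher and 0.239% lower, and the median was -0.03. An unadjusted p under 0.05 was reached by 5 higher and 2 lower of the list, against 5.46% and 7.59% of all tested genes. The groups did not overlap in 6 higher and 2 lower, against 7.81% and 11.9%. The gene called from the list was Ifngr1, the ligand-binding chain of the interferon-γ receptor. It stood at 160, 141 and 134 FPKM with vehicle and at 283, 283 and 291 FPKM with PGE2. All PGE2 libraries were far above the vehicle libraries, by a log2 change of 0.98 (SE 0.09, 0.92 to 1.05 with each library left out), a fold of 1.97, with a limma adjusted p of 0.0063, which lost the threshold without PGE2 replicate 2 (0.056). Ifng, which encodes the ligand, was low in all libraries, at 1.42, 1.22 and 1.4 FPKM with vehicle and 1.07, 1.48 and 1.54 FPKM with PGE2.

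Ifngr2, the signalling chain of that receptor, read 7.68, 7.92 and 8.12 FPKM with vehicle and 10.1, 11 and 10.9 FPKM with PGE2, without overlap (log2 change 0.39, SE 0.08, limma adjusted p = 0.097). Irf1, an interferon regulatory factor that acts on ISRE elements of GBP genes, overlapped between groups (163, 123 and 98.1 FPKM against 166, 142 and 134 FPKM, log2 change 0.23, limma adjusted p = 0.67). Jak2, the kinase of Ifngr2, had a log2 change of 0.37 (limma adjusted p = 0.27), and Jak1 one of 0.03 (0.93).

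Stat2 and Irf9, which act together in type I interferon signalling, had log2 changes of 0.1 and 0.19, and neither passed the test. Irf2 and Irf8, which can oppose or modify IRF1 at ISRE elements, had -0.01 and -0.23. Irf8 read 78.9, 66.4 and 75.3 FPKM with vehicle and 61.4, 64.2 and 62 FPKM with PGE2, lower without overlap (limma adjusted p = 0.35). Socs1, the feedback inhibitor of JAK kinases, read 97.9, 85.1 and 115 FPKM with vehicle and 108, 123 and 151 FPKM with PGE2 (log2 change 0.35, limma adjusted p = 0.39). Nlrc5, the activator of MHC class I genes, had 0.13, and Batf2 stayed under the filter. With the replicate block Ifnar1, a chain of the type I interferon receptor named after its value was seen, was called as well (22.1, 27.5 and 27.6 FPKM against 38.9, 40.4 and 36.7 FPKM, log2 change 0.58, limma adjusted p = 0.067 without the block and 0.033 with it).

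**Figure D4:**
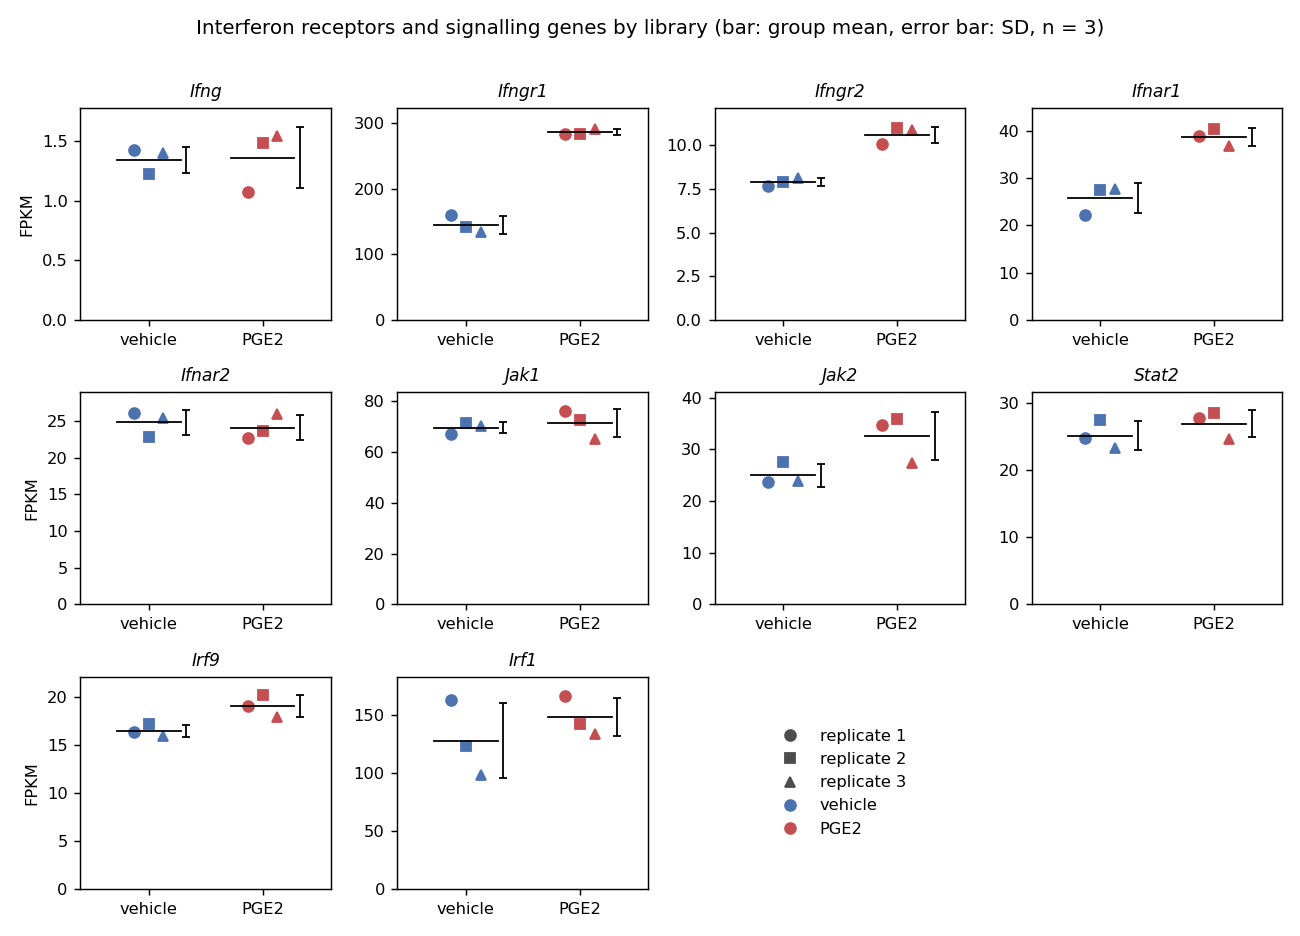
FPKM of interferon receptor and signalling genes in each library (vertical axes in FPKM, starting at 0; marker shape gives the replicate number; bars are group means with SD, n = 3). Ifngr1 lies between 134 and 160 FPKM with vehicle and between 283 and 291 FPKM with PGE2, while Ifng stays at or under 1.54 FPKM in all 6 libraries.

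Other targets of the same signals were counted in the same way. Over all tested genes limma called 0.57% higher and 0.239% lower, or 1.77% and 1.49% with the block. An unadjusted p under 0.05 was reached by 5.46% (higher) and 7.59% (lower). All PGE2 libraries lay above all vehicle libraries in 7.81% and below them in 11.9%. Of 26 other interferon-γ targets 21 were tested and 0 called in either direction by limma, with a median log2 change of 0.15. An unadjusted p under 0.05 was reached by 6 higher and 1 lower, and the groups did not overlap in 8 higher and 2 lower. The most abundant, B2m, the light chain of MHC class I, read 2120, 2100 and 2400 FPKM with vehicle and 2250, 2440 and 2800 FPKM with PGE2. With the replicate block Ly6a (log2 change 0.5, adjusted p = 0.045 with the block) and Serpina3g (-0.76, 0.013) were called, both named after their values were seen. Of 31 type I interferon-stimulated genes 23 were tested, with a median of 0.26. An unadjusted p under 0.05 was reached by 11 higher and 0 lower, and the groups did not overlap in 12 higher and 0 lower. By limma 1 was called higher and 0 lower. That gene was Irf7, which amplifies type I interferon (6.2, 5.79 and 5.57 FPKM against 8.94, 11.3 and 12 FPKM, log2 change 0.77, limma adjusted p = 0.045, up to 0.21 under the alternatives). The most abundant of these, Ifi27, read 78, 85.1 and 66.2 FPKM with vehicle and 82.4, 108 and 107 FPKM with PGE2. With the block 4 of them were called, Irf7 and, named after their values were seen, Ifit1bl1, Rtp4 and Zbp1.

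The partners that GBP and IRG proteins work with were tested in 21 of 22 cases, and 0 were called in either direction, without or with the block. They comprise inflammasome genes, the ATG8 conjugation machinery that places IRGs on vacuoles, and the enzymes that attach the lipid anchor of Gbp2 and Gbp5. An unadjusted p under 0.05 was seen for 1 higher and 1 lower, against 5.46% and 7.59% of all tested genes. The median log2 change of these partners was 0.02. Gabarap, an ATG8 protein and the most abundant, read 116, 96.5 and 89.3 FPKM with vehicle and 108, 134 and 110 FPKM with PGE2.

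Averaged over the members, the centred profile on log2(FPKM + 1) was -0.12, -0.03 and -0.15 with vehicle and 0.09, 0.15 and 0.07 with PGE2. All vehicle libraries were below 0 and all PGE2 libraries above it. The genes outside the family with the most similar profile over the 6 libraries, by root mean square difference, were Klf3 (0.014), Spata2l (0.025), Lman2l (0.026), Irf9 (0.029) and Dhx58 (0.031). Irf9 read 16.4, 17.2 and 16 FPKM with vehicle and 19.1, 20.2 and 17.9 FPKM with PGE2. These profiles share their 6 libraries, and no test was made of the likeness. With read coverage the log2 change was smaller for Klf3 (0.1, against 0.22 with FPKM) and Irf9 (0.09 against 0.19). It stayed closer for Spata2l (0.16 against 0.18), Lman2l (0.24 against 0.25) and Dhx58 (0.12 against 0.15).

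How far a member's value is its own depends on shared sequence, counted as the share of 75-base windows of its transcripts in GENCODE release M21 that also occur in another gene. It was 1% for Gbp2, 0.6% for Gbp5, 2.1% for Gbp3, 3.1% for Gbp4, 3.6% for Gbp9 and 0% for Irgm1, and 7.8% for Igtp, 8% for Gbp8 and 11.3% for Gbp7. Gbp2 and Irgm1 are thus read almost wholly from sequence of their own. The Gbp6 entries shared 67.3% (shorter) and 99.4% (longer) of their windows, mostly with each other and with Gbp10, of whose windows 77.8% are shared. Tgtp1 and Tgtp2 shared 77.2% and 81.4%. How the gene tables divided such reads is not given in the sources used here, so values within the Gbp6 and Gbp10 group and within the Tgtp pair are uncertain one by one.

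**Figure D5:**
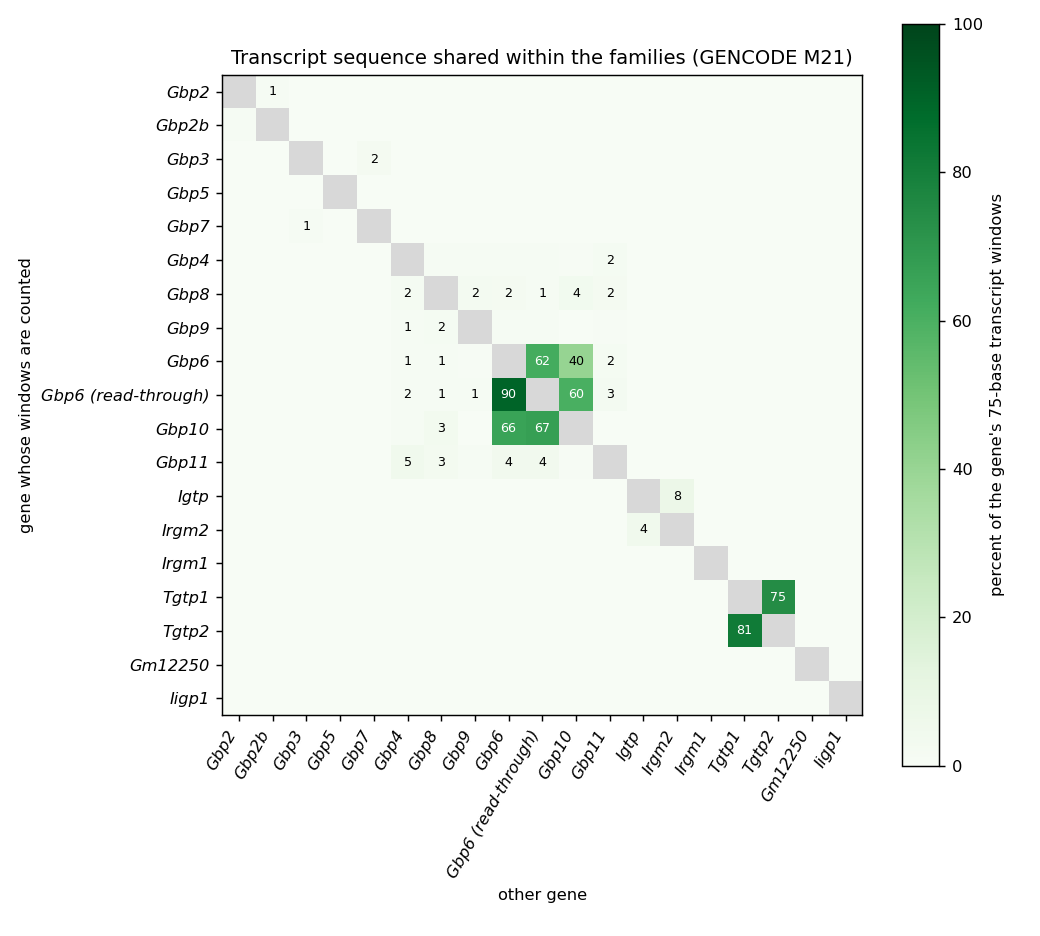
Share of each gene's 75-base transcript windows (colour and numbers, percent; rows: the gene whose windows are counted; columns: the other gene) found in another GBP or IRG gene, with the longer Gbp6 entry marked as read-through. The Gbp6, Gbp10 and Tgtp cells stand out, while the row of Irgm1 is empty and that of Gbp2 holds only 1% with Gbp2b.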

How the data were processed

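RNA sequencing of 6 libraries (3 vehicle, 3 PGE2) was used; groups and replicate numbers came from the sample titles. Per the labels' protocols, RNA came from a spin column and the libraries from a stranded kit that takes polyadenylated RNA. Trim Galore, HISAT2 and the build mm10 are named by the submitters' processing notes. The versions, annotation and quantifier were not given in the sources used here. Per the file headers, each deposited gene table gives coverage (mean read depth, a signal), FPKM (scaled by the authors to length and library size) and TPM. TPM as deposited was taken for a score and not used, because assembled loci and annotated genes are listed side by side. Annotated entries were used, and repeated entries of a gene ID were added up.

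The filter kept 12113 of 47643 gene IDs, those averaging 1 FPKM or more, and the test ran on log2(FPKM + 1), which understates the change of low genes, with limma 3.58.1 in R 4.3.3: a variance trend, no covariate, two-sided, Benjamini-Hochberg adjustment over all tested genes, threshold 0.05. Coverage was divided by each library's ratio of coverage to FPKM and fitted likewise. Counts are not at hand, so no counting interval was computed. The procedure was tested on simulated data. Shared windows were counted in GENCODE M21 transcripts, whose assembly, GRCm38, is that of mm10.

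After subtracting group means, same-numbered libraries correlated across genes at 0.23 (number 1), 0.31 (number 2) and 0.53 (number 3), and other pairs at -0.43 to 0.27. The same-numbered values all exceed the 0.1 set for pairing, so the numbers in the titles were taken to pair the samples. Vehicle 1 with PGE2 2 (0.15) and vehicle 2 with PGE2 1 (0.27) exceed it too. The rule thus does not tell numbers 1 and 2 apart, and the pairing is an assumption. The main fit did not use the numbers. Beside the counts, a fit with the replicate number as a block is given where it changes a call, and for Irgm1 and Gbp5, where it does not. Alternatives were a pseudocount of 0.1, no filter or a mean of at least 5 FPKM, coverage, median-of-ratios and quantile scaling, no variance trend, the block, and leaving out each library.

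Named genes follow a rule: all members, all other GBP and IRG genes, set signalling genes, and from each further list the called genes and the most abundant, plus the 5 most similar profiles; exceptions are stated beside the values. An item of the signalling list is not reported here, although the list counts include every tested gene. The members and lists were chosen with earlier results of these data known.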

Additional observations from a re-analysis of the deposited data

How the results depend on the processing

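Over 14 alternatives the 11 member IDs gave 154 fits, of which 141 kept the direction and the side of the threshold, 3 lost the call and 10 turned direction. The call of Gbp2 was lost without vehicle replicate 1, vehicle replicate 2 or PGE2 replicate 2, so that the members called higher numbered 0 to 1 with each library left out. The turned values were of members with changes near 0: Gbp7 was 0.08 with coverage, 0.03 with median-of-ratios scaling, 0.01 with quantile normalization and -0.14 to 0.07 with each library left out. Gbp8 was -0.02 to 0.31 with each library left out, and Gbp9 was -0.01 with coverage and -0.02 to 0.17 with each library left out. The cause was not tested. Pairing by a replicate block changed no member's call. It gave 215 genes higher and 180 lower over all tested genes (69 and 29 without it), and called 1 of the other GBP and IRG genes, 2 signalling genes, 2 other interferon-γ targets and 4 type I interferon-stimulated genes. Without the filter 33 genes were higher, 12 lower and 0 of the type I list called. Coverage gave 112 and 47, and no variance trend gave 16 lower and 0 of the type I list. With each library left out, 16 to 53 genes were higher and 4 to 16 lower, with 0 to 1 called in the signalling list (0 without PGE2 replicate 2), 0 to 1 among other interferon-γ targets (1 without vehicle replicate 3) and 0 to 1 in the type I list. Alternatives for the gene lists were added after seeing the data. Groups of 3 limit every test here, and no scaling moved the median of all genes by over 0.04.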
